A study of Mus musculus with 18 samples.

Results

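Arntl, Clock, Npas2, Nfil3 and Rora are 5 genes of the circadian clock, its activators together with a ROR receptor and the repressor Nfil3, measured here in the ventricular myocardium of mice. They were taken as every probe set that the platform annotation assigns to one of these 5 symbols alone, which gave 18 probe sets of 5 genes among 18193 genes on the array. Arntl had 2 probe sets, Clock 4, Npas2 2, Nfil3 1 and Rora 9. The probe set that stands for each gene was chosen by its mean signal, the highest over the 18 arrays, and that mean enters no test. The genes themselves were picked on earlier results of these arrays.

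The study asked how the heart of the leptin-deficient ob/ob mouse responds to leptin and to a matched cut in food intake. Wild-type C57Bl/6J mice (4 arrays) were compared with 3 groups of C57Bl/6J ob/ob mice, which carry no working leptin gene in any cell. The ob/ob mice ate ad libitum until 6 months of age. Leptin and calorie restriction then lasted 1 month, and no such time is listed for the ad libitum mice. Of the ob/ob arrays, 4 came from mice that went on eating ad libitum and 5 from mice given recombinant mouse leptin from an osmotic mini-pump. The other 5 came from mice held by calorie restriction to the intake of the leptin mice. Wild-type mice were 6 months old per the sample labels, and up to 8 months old per the series text. All mice were killed between 7 and 8 AM, so each gene was seen at 1 time of day. No source used here gives the light schedule, the hours at which restricted mice were fed or the sex of the mice. No label says that each array came from its own mouse, so p-values measure the spread between these arrays.

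The mammalian clock is a transcriptional loop that runs in nearly every cell, heart muscle cells included. ARNTL (also called BMAL1) pairs with CLOCK or with its close relative NPAS2, and the pair binds E-box elements to switch on the Per and Cry repressors, the REV-ERB repressors Nr1d1 and Nr1d2, and output factors such as Dbp. A second arm acts on ROR elements, where RORA and its relatives activate and the REV-ERB proteins repress genes that include Arntl, Clock, Npas2 and Nfil3. NFIL3 in turn represses D-box genes, which DBP, TEF and HLF activate. Transcripts of Arntl and of Dbp normally peak at nearly opposite times of day.

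The promoter sequences show which of these elements lie beside the start sites of the 5 genes. RefSeq windows of GRCm38.p6, running from 250 bases before to 50 bases after each start, were found for 5 of the 5 genes (8 windows, 300 bases each), and 7 motifs were searched on both strands. The search covered AGGTCA (the core of the ROR element), the longer TAGGTCA (which contains AGGTCA) and its variant TAGGTTA. It also covered the E-box CACGTG with its variant CACGTT, and the D-box letters TTATGTA with the second form TTACGTA. The letters TAGGTTA were added after the Arntl window had been read. Capitals mark the motif as it reads on the gene's own strand, where TGACCTA is TAGGTCA of the other strand. The first Arntl run lies at chr7:113207493-113207522 (plus strand), with its motif 6 bases before the start site of the second Arntl window and 41 bases after that of the first. The second Arntl run lies at chr7:113207529-113207558 (plus strand), with its motif beginning 31 bases into that window's transcript. The Nfil3 run lies at chr13:52981034-52981063 (minus strand) and the Clock run at chr5:76303604-76303633 (minus strand).
Arntl first: ttggtcggaaagTAGGTTAgtggtgcgaca
Arntl second: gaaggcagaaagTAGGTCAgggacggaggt
Nfil3: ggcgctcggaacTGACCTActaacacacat
Clock: agctttggcctcTGACCTgacagatgacag
TAGGTCA was present in the second Arntl window and in the Nfil3 window, against 2.61% of all 32851 windows of this length and 2.97% of genes. TAGGTTA was present in Arntl, against 1.44% of windows and 1.7% of genes. AGGTCA without the leading T was in the third Clock window only, against 16.26% of windows and 18.13% of genes for AGGTCA. The windows of Npas2 and Rora held none of the 7 motifs. CACGTG, found in 7.15% of all windows, was in none of the windows of the 5 genes, nor were CACGTT (4.68%), TTATGTA (2.63%) and TTACGTA (0.47%). A match describes these letters in these windows and is not a measured binding site.

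Signals below are the deposited MAS5 intensities, linear values scaled so that each array has the same trimmed mean (100.001 on each of the 18 arrays). Array medians ran from 22.3 to 31.8, and correlations between arrays from 0.943 to 0.971. The 8 ventricular muscle markers were present on every array, with summed signals of 45624 to 69178. Markers of the atrium, which a ventricular sample should lack, summed to between 581 and 3147 outside the calorie-restricted group and to between 1260 and 15126 within it. Its replicates 2 and 3 had signals of 3448 and 3548 for Myl7, the atrial myosin light chain, where the other restricted arrays had 3.58 to 635. Tests are limma's moderated tests on log2(signal + 5.13), fitted over 13359 genes and all 4 groups. A gene is called when its Benjamini-Hochberg adjusted p, over all genes tested, is below 0.05, and changes are differences on that log2 scale with their SE. In whole tissue, fewer cells of a type and less RNA per cell cannot be told apart.

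Of the 18 probe sets, 15 passed the filter on low signal, which sits at the 40th percentile of probe set means. Those left out were 1 of Clock (1439314_at, mean signal 12.5), 1 of Npas2 (1421036_at, 5.30) and 1 of Rora (1458145_at, 12.5). The member probe set closest above the filter was 1421037_at of Npas2, which stands for that gene. All 5 genes were therefore tested.

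Arntl, whose protein pairs with CLOCK or NPAS2, followed the study groups most closely of the 5 genes, by its main probe set only. Its main probe set (1425099_a_at) read 202, 192, 173 and 187 in ad libitum ob/ob hearts. Leptin-treated hearts read 60.1, 76.2, 46.4, 50.4 and 62.8. Calorie-restricted hearts read 115, 69.9, 98.9, 105 and 101, and wild-type hearts 154, 108, 112 and 103. Every ad libitum array was above every array of the other 3 groups. Taken one comparison at a time, such a gap was seen in 2.52% of genes against leptin. It was seen in 4.88% against restriction and 3.65% against wild type. Leptin arrays lay below every wild-type array, and met the restricted group only through its replicate 2 at 69.9. Restricted and wild-type arrays overlapped. By median the order was leptin at 60.1, calorie restriction at 101, wild type at 110 and ad libitum at 190. Of these neighbours, leptin and calorie restriction overlapped through 1 restricted array, calorie restriction and wild type overlapped, and wild type and ad libitum did not overlap.

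**Figure D1:**
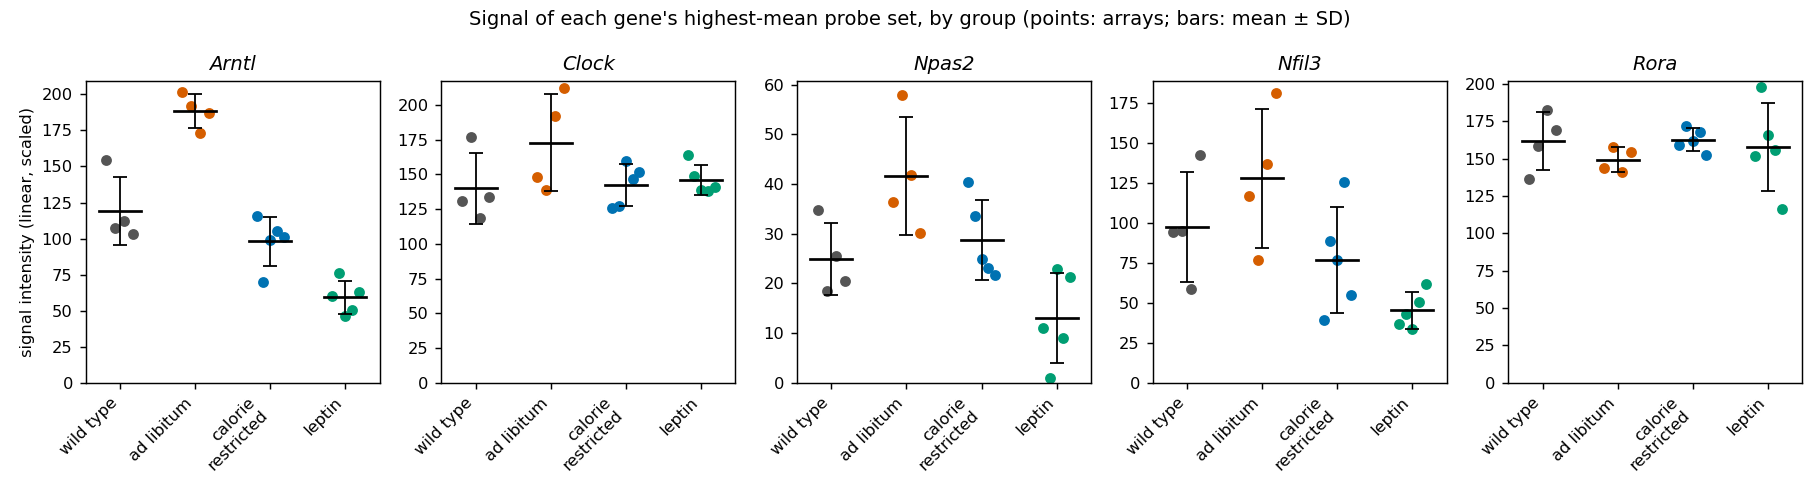
Linear MAS5 signal of the main probe set of each of the 5 genes by study group; points are arrays, and the bar with whiskers is the mean ± SD of 4 or 5 arrays. Arntl in the ad libitum ob/ob group (173 to 202) lies above all other arrays, while Clock and Rora overlap in all groups.

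Between ad libitum and leptin-treated ob/ob hearts, mean Arntl signal was 188 ± 11.8 (SD, n = 4) against 59.2 ± 11.7 (SD, n = 5), which is 3.18-fold lower with leptin. Arntl fell by 1.61 ± 0.15 on the log2 scale (limma adjusted p = 1.21e-04, lower on 5 of 5 leptin arrays). It was the 1 gene of the 5 called in this comparison, where 0.644% of all genes tested were called and 0.24% were called lower. Arntl's fall was already known when the 5 genes were put together, so it is given as a description of its size.

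Food restriction without leptin also went with less Arntl. The restricted group averaged 98.1 ± 17.0 (SD, n = 5), 1.92-fold below ad libitum feeding, and Arntl fell by 0.92 ± 0.15 (limma adjusted p = 0.00197). In this comparison 5.43% of all genes were called and 2.97% were called lower. Restricted replicates 2 and 3, the arrays with high atrial signal, read 69.9 and 98.9. Without both arrays the change was -0.78 (limma adjusted p = 0.0152), and with the atrial signal as a covariate it was -0.86 (limma adjusted p = 0.0199). The call was lost when Arntl's probe sets were averaged (-0.35, limma adjusted p = 0.197), as described under its second probe set.

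Leptin and calorie restriction were matched for intake, so their comparison sets leptin against the same intake without it. Arntl was 1.66-fold lower with leptin than with restriction, and fell by 0.68 ± 0.14 (limma adjusted p = 0.00471). Npas2 was also called, so 2 of the 5 genes fell in a comparison where 13.6% of all genes were called and 5.72% were called lower.

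Set against wild type, Arntl stood on opposite sides in the untreated and the leptin-treated ob/ob heart, though neither difference passed the threshold over all genes. Wild-type hearts averaged 119 ± 23.7 (SD, n = 4). Ad libitum ob/ob hearts were 1.58-fold higher, with a log2 change of 0.65 ± 0.16 (95% interval 0.32 to 0.99, limma adjusted p = 0.117). Leptin-treated hearts were 2.01-fold lower, with a change of -0.95 ± 0.15 (95% interval -1.27 to -0.63, limma adjusted p = 0.0657). Restricted hearts were close to wild type, at -0.27 ± 0.15 (95% interval -0.59 to 0.05, limma adjusted p = 0.302). None of the 5 genes was called in these 3 comparisons, where 0.299%, 0.00749% and 11.3% of all genes were called for ad libitum, leptin and restriction against wild type. By limma's unadjusted p, 1, 3 and 0 of the 5 genes were below 0.05 in these comparisons. The share of all genes below that level was not counted, so these counts have no background. Arntl was below it in the ad libitum (8.19e-04) and the leptin (9.84e-06) comparison, by limma's unadjusted p. Leaving out leptin replicate 2 or wild-type replicate 4 brought the leptin difference under the threshold (limma adjusted p = 0.0243 and 0.0460), while averaging Arntl's probe sets cut it to -0.36 (limma adjusted p = 0.488). Both groups' arrays did not overlap wild type, a pattern that 3.65% of genes showed upward in the ad libitum comparison and 1.63% showed downward in the leptin comparison.

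**Figure D2:**
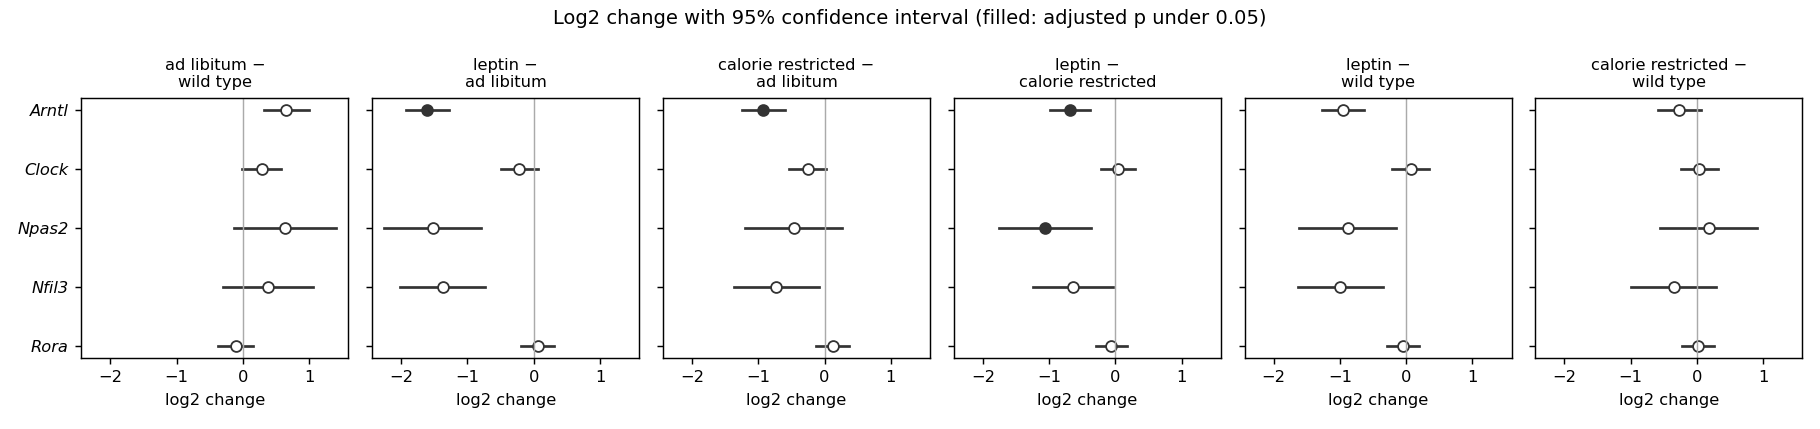
Log2 change of each of the 5 genes in the 6 comparisons between groups, with 95% intervals from limma; filled points are called at an adjusted p below 0.05 over all genes. Filled points are Arntl in leptin against ad libitum, restriction against ad libitum and leptin against restriction, and Npas2 in leptin against restriction.

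The second Arntl probe set did not show these differences. This set, 1457740_at, read 42.2, 69.8, 45.6 and 26.9 in ad libitum hearts and 44.4, 48.2, 53.8, 45.1 and 31.4 with leptin. Restricted arrays read 44.5, 60.8, 53.9, 58.1 and 43.7, and wild-type arrays 57.5, 30.3, 37.8 and 27.7. All 4 groups overlapped. Fitted over all 23108 probe sets that passed the filter, its change with leptin against ad libitum was 0.0034, with a 95% interval of -0.46 to 0.47 (limma adjusted p = 0.997). That interval leaves out the -1.61 of the main set. Restriction against ad libitum gave 0.22 (95% interval -0.25 to 0.68) where the main set gave -0.92. In this fit over probe sets the main Arntl set was called in leptin against wild type as well (limma adjusted p = 0.0483), in a comparison where 0.0216% of sets were called. No source used here says which transcripts each probe set reads, and the reason for the disagreement was not tested.

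CLOCK, the partner of ARNTL that carries acetyltransferase activity, showed no called difference in transcript level in any comparison. Its main probe set (1418659_at) read 148, 139, 192 and 212 in ad libitum hearts, and 164, 149, 139, 138 and 141 with leptin. Restricted hearts read 126, 127, 159, 147 and 152, and wild-type hearts 131, 177, 119 and 133. Each group overlapped each other group, so no order of the 4 groups stands beyond the spread. The change with leptin against ad libitum was -0.22 ± 0.13 (95% interval -0.49 to 0.06, limma adjusted p = 0.498), and with restriction -0.26 ± 0.13 (95% interval -0.54 to 0.02, limma adjusted p = 0.312). Leptin against restriction gave 0.04 ± 0.12 (95% interval -0.22 to 0.30).

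The 3 Clock probe sets that passed the filter pointed the same way. All 3 were below ad libitum with leptin (-0.49 to -0.22) and with restriction (-0.53 to -0.26), and above wild type in ad libitum hearts (0.29 to 0.35). None was called, in comparisons where 4.2% (restriction against ad libitum), 0.329% (leptin against ad libitum) and 0.151% (ad libitum against wild type) of all probe sets were called. The lowest adjusted p belonged to 1435775_at under restriction (limma adjusted p = 0.0577). That set read 79.3, 116, 105 and 86.2 in ad libitum hearts and 48.2, 58.0, 67.2, 76.0 and 78.0 under restriction, without overlap. Of genes tested by their main probe set, 4.88% did so in this direction, and this set is not a main one. Probe sets of 1 gene were read on the same arrays and are not separate evidence.

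NPAS2, which can replace CLOCK in the pair with ARNTL, fell in leptin-treated hearts relative to restricted ones. Leptin arrays of 1421037_at read 11.0, 0.896, 22.9, 9.0 and 21.3, and restricted arrays 40.5, 33.5, 24.9, 23.1 and 21.6. Ad libitum arrays read 36.4, 57.9, 41.8 and 30.2, and wild-type arrays 34.8, 18.6, 25.6 and 20.5. Every leptin array was below every ad libitum array, as held for 2.52% of genes in this direction. The other groups overlapped, leptin and restriction only between 21.6 and 22.9.

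Npas2 averaged 13.0 ± 9.12 (SD, n = 5) with leptin and 28.7 ± 8.04 (SD, n = 5) with restriction, and fell by 1.06 ± 0.33 on the log2 scale (limma adjusted p = 0.0400). This call was lost under 13 of 19 alternatives, where the adjusted p ran from 0.0184 to 0.138. It was lost without restricted replicate 1, 2, 3 or 4 (limma adjusted p = 0.0930, 0.0861, 0.0620 and 0.0507) and without leptin replicate 1, 2 or 4 (0.0680, 0.0720 and 0.0747). Without both restricted arrays of high atrial signal the change was -1.03 (limma adjusted p = 0.138), and with atrial signal as a covariate -1.13 (limma adjusted p = 0.0808).

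Against ad libitum feeding, Npas2 was lower with leptin, a change of -1.52 ± 0.35 (95% interval -2.25 to -0.79) that stayed just above the threshold (limma adjusted p = 0.0573). Leaving out leptin replicate 3 or 5 brought it under (0.0344 and 0.0403 by limma). Restriction against ad libitum gave -0.46 ± 0.35 (95% interval -1.19 to 0.27, limma adjusted p = 0.542), and ad libitum against wild type 0.64 ± 0.37 (95% interval -0.14 to 1.41, limma adjusted p = 0.592). Npas2 signal is low, near the filter, and 3 of its 5 leptin arrays (11.0, 0.896 and 9.0) lie under the log2 level of 4.36 at which genes were filtered on their mean. The lowest lies under the offset of 5.13, so the size of its change depends on that offset. The second Npas2 set, 1421036_at, was under the filter. It read 22.9 and 21.2 on ad libitum replicates 3 and 4 and between 1.42 and 5.81 on the other 16 arrays.

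Nfil3, the D-box repressor, had its lowest signals with leptin, but no difference passed the threshold. Its single probe set (1418932_at) read 36.7, 43.2, 33.9, 50.8 and 61.8 with leptin and 117, 76.7, 137 and 182 in ad libitum hearts. Restricted hearts read 39.6, 89.0, 77.0, 126 and 54.7, and wild-type hearts 94.2, 95.0, 58.7 and 143. Leptin and ad libitum arrays did not overlap, which held for 2.52% of genes in this direction, and restricted and wild-type arrays spread over both.

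Mean Nfil3 signal was 45.3 ± 11.3 (SD, n = 5) with leptin against 128 ± 43.6 (SD, n = 4) in ad libitum hearts, 2.83-fold lower. The log2 change was -1.37 ± 0.30 (95% interval -2.01 to -0.73), and its limma adjusted p of 0.0501 lay at the threshold. It passed without ad libitum replicate 2 (limma adjusted p = 0.0432) or leptin replicate 5 (0.0498), and over all 20 alternatives the adjusted p ran from 0.0264 to 0.146. Restriction against ad libitum gave -0.73 ± 0.30 (95% interval -1.37 to -0.09, limma adjusted p = 0.193). Leptin against restriction gave -0.64 ± 0.29 (95% interval -1.24 to -0.03, limma adjusted p = 0.160), and leptin against wild type -0.99 ± 0.30 (95% interval -1.64 to -0.35, limma adjusted p = 0.347).

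Rora, the nuclear receptor that activates through ROR elements, gave similar signals in the 4 groups. The main set (1424034_at) read 144, 158, 141 and 155 in ad libitum hearts, and 152, 198, 166, 156 and 116 with leptin. Restricted hearts read 159, 172, 162, 168 and 152, and wild-type hearts 136, 159, 183 and 169. All groups overlapped. Leptin against ad libitum gave 0.06 ± 0.12 (95% interval -0.19 to 0.31, limma adjusted p = 0.875), and restriction against ad libitum 0.12 ± 0.12 (95% interval -0.13 to 0.37, limma adjusted p = 0.667). The upper and lower ends of the leptin interval leave out a change of the size Arntl showed.

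None of the 8 tested Rora probe sets was called in any of the 6 comparisons. Over all probe sets 11.4% were called in leptin against restriction and 9.48% in restriction against wild type. All 8 were higher under restriction than under ad libitum feeding, by 0.05 to 0.52 with a median of 0.18. Of these 2 had an unadjusted limma p below 0.05, and the lowest limma adjusted p was 0.186. The share of all probe sets below that unadjusted level was not counted. In ad libitum hearts 7 of 8 were below wild type (-0.84 to 0.05), with a lowest limma adjusted p of 0.506. The set under the filter, 1458145_at, read 12.0 to 20.6 with leptin and 6.20 to 10.7 in wild type, without overlap. Of genes tested by their main probe set, 1.59% did so in this direction, a share that leaves out sets under the filter.

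**Figure D3:**
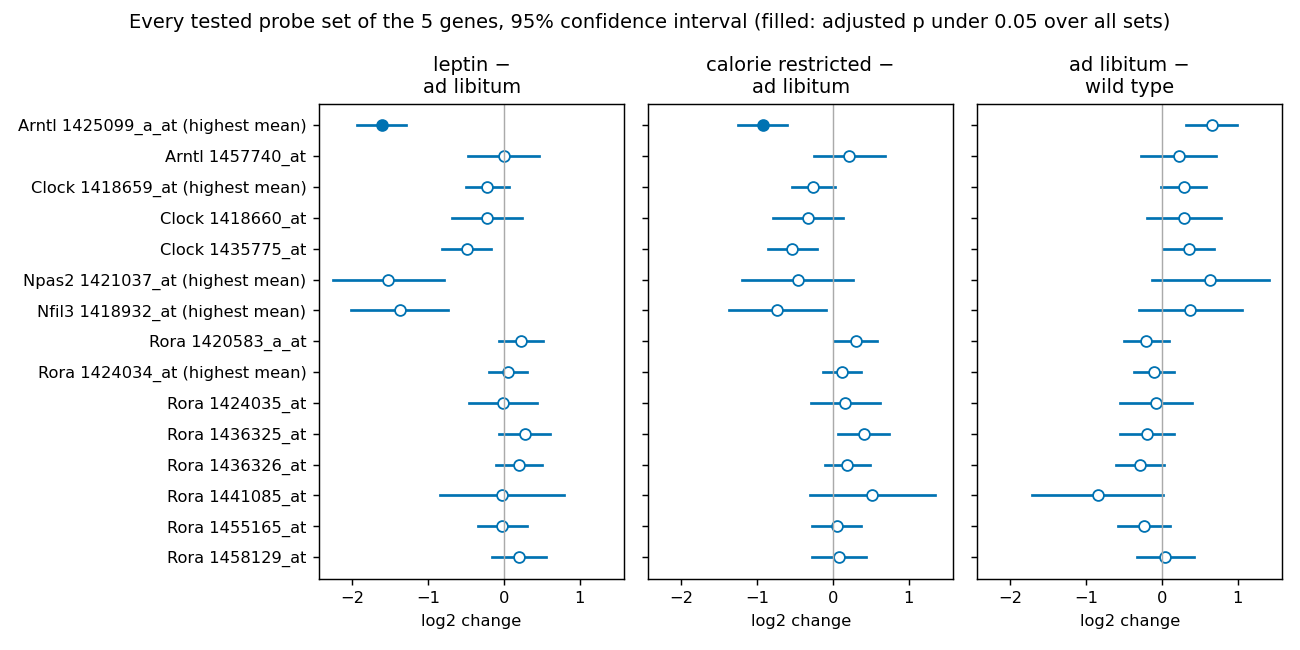
Log2 change of each of the 15 tested probe sets of the 5 genes in leptin against ad libitum, restriction against ad libitum and ad libitum against wild type, with 95% intervals from limma fitted over 23108 probe sets. The 2 Arntl sets part (-1.61 and 0.0034 with leptin), while the 3 Clock sets lie on the negative side in both treatments.

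Read as a list, the 5 genes had a median change of -1.37 with leptin against ad libitum, where the median of all genes tested was -0.01. That value is the change of Nfil3, which was not called. The 5 genes were picked on earlier results of these arrays, so their medians are a description and not a test. The median was -0.46 with restriction against ad libitum and -0.64 with leptin against restriction. These comparisons share arrays, so their values stand side by side and are not separate evidence. Marker sums differed between groups. The 8 ventricular muscle markers summed to 46322 to 50512 in wild type, below the 51976 to 59970 of ad libitum and the 53788 to 69178 of restricted hearts, and to 45624 to 61900 with leptin. None of the 8 was called by limma in any comparison, and 6 had an unadjusted p below 0.05 in restriction against wild type. The share of all genes below that unadjusted level was not counted. The 5 macrophage markers summed to 835 to 1168 under restriction, 1280 to 1459 in ad libitum, 1417 to 1900 in leptin and 1428 to 2147 in wild-type hearts. The 5 endothelial markers summed to 1038 to 1279 under restriction and 1288 to 1985 in ad libitum hearts. With leptin they summed to 1417 to 1731, and in wild type to 1117 to 1719. The 6 fibroblast markers summed to 3596 to 4634 under restriction, 4548 to 5533 with leptin, 4244 to 4877 in ad libitum and 4115 to 7783 in wild-type hearts. The 3 smooth muscle markers summed to between 1059 and 1993 over all arrays. In restriction against ad libitum 2 macrophage, 2 endothelial and 3 fibroblast markers were called lower (2.97% of all genes). There 1 smooth muscle marker was called higher (2.46%). In leptin against restriction 4 macrophage, 2 endothelial and 3 fibroblast markers were called higher (7.9%). In restriction against wild type 4 macrophage and 3 fibroblast markers fell and 1 smooth muscle marker rose (11.3% called either way). Of 3 adipocyte markers only Adipoq was measured, at 0.6 to 56.3. Their part in the values of the 5 genes was not tested.

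The other arms of the clock were listed from textbook knowledge, with earlier results of these arrays known. Their counts beside the shares of all genes are therefore a description and not a test. Of the 10 repressors tested, 3 rose and 0 fell with leptin against ad libitum, with a median of 0.53, where 0.404% of all genes were called higher. With restriction against ad libitum 2 rose and 0 fell (median 0.27, 2.46% of all genes called higher), and with leptin against restriction 2 rose and 0 fell (median 0.30, 7.9% called higher). In ad libitum hearts against wild type 0 rose and 1 fell (median -0.14, 0.187% called lower). Of the 3 D-box activators (Dbp, Tef and Hlf), 2 rose with leptin and 1 with restriction against ad libitum. Of all genes tested the medians in these 4 comparisons lay between -0.03 and 0.00. None of 7 kinases and turnover factors of the clock was called by limma in any comparison, and 0 to 2 of them had an unadjusted p below 0.05. For that unadjusted level no share of all genes was counted. Of the relatives of the 5 genes, Arntl2 and Rorb were tested and neither was called.

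Dbp, the D-box activator whose transcript normally runs opposite to Arntl, read 524, 373, 656, 797 and 427 with leptin and 117, 131, 115 and 88.7 in ad libitum hearts. Leptin against restriction raised Dbp by 1.54 (limma adjusted p = 5.82e-04), a call kept under all 21 alternatives. Restriction against ad libitum gave 0.67, which was not called (limma adjusted p = 0.157). Restricted Dbp arrays ran from 117 to 251.

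Nr1d2, a REV-ERB repressor that acts on the same elements as RORA, was lowest in ad libitum hearts at 816 ± 58.8 (SD, n = 4) and highest with leptin at 1394 ± 175 (SD, n = 5). Its rise with leptin against ad libitum was 0.76 (limma adjusted p = 0.00184, lost under 2 of 20 alternatives). Against restriction the rise was 0.43 (limma adjusted p = 0.00593). Its close relative Nr1d1 was not called (0.16 with leptin against ad libitum, limma adjusted p = 0.815). Against wild type, the fall of Nr1d2 in ad libitum hearts was lost under 13 of 19 alternatives, among them leaving out any 1 of the 4 ad libitum arrays (limma adjusted p = 0.0710 to 0.103) or wild-type replicate 2, 3 or 4 (0.127, 0.0883 and 0.0880).

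Per2, a period repressor, rose with restriction against ad libitum by 0.88 (limma adjusted p = 0.00359, kept under all 20 alternatives) and with leptin by 0.83 (limma adjusted p = 0.0229, lost under 6 of 20). The leptin call of Per2 was lost without ad libitum replicate 2 or 4 (limma adjusted p = 0.0854 and 0.0747) and without leptin replicate 1 or 3 (0.0548 and 0.0551). Leptin against restriction gave -0.05 for Per2 (limma adjusted p = 0.857). Cry1, a repressor that also carries ROR elements in textbook accounts, was not called (-0.22 with leptin against ad libitum, limma adjusted p = 0.689).

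**Figure D4:**
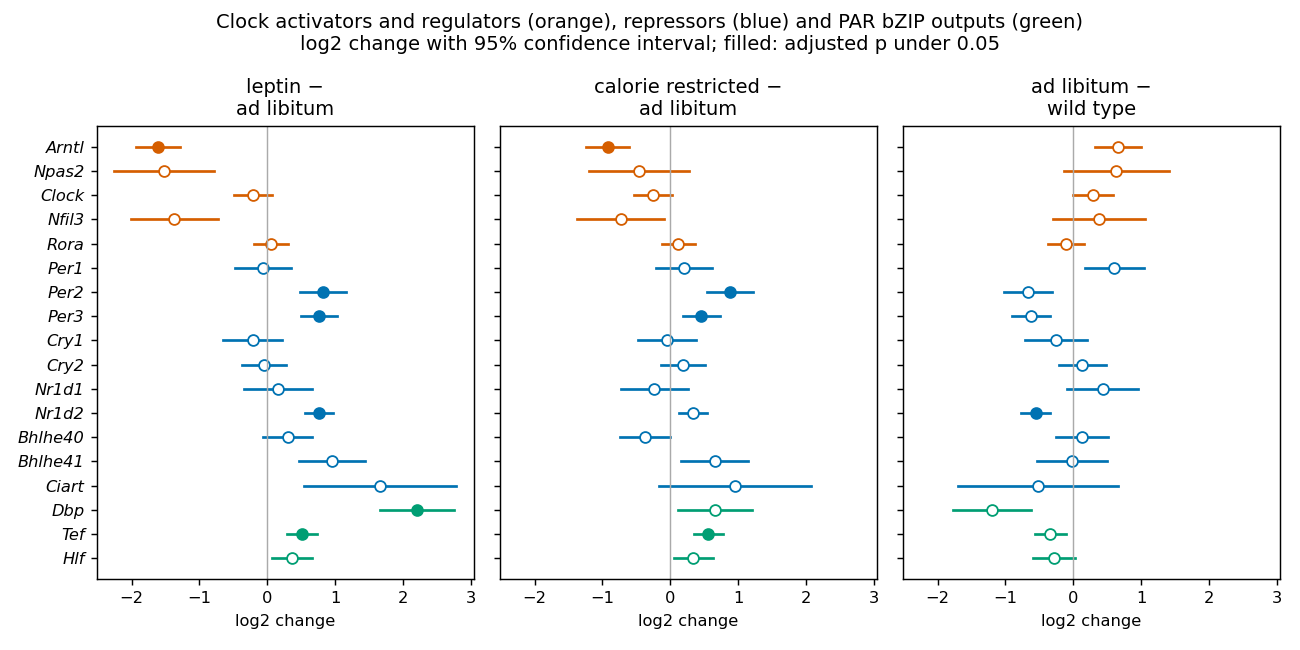
Log2 change of 18 clock genes in leptin against ad libitum, restriction against ad libitum and ad libitum against wild type, with 95% intervals from limma; orange marks the 5 genes described here, blue the repressors and green the D-box activators. With leptin Arntl lies at -1.61 and Dbp at 2.21, and Clock and Rora lie near 0.

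The remaining called clock genes are given by their changes. Per3 rose with leptin (0.77, limma adjusted p = 0.0102, lost under 2 of 20 alternatives) and with restriction (0.46, limma adjusted p = 0.0427, lost under 15 of 20) against ad libitum. Tef rose with leptin (0.52, limma adjusted p = 0.0303, lost under 11 of 20) and with restriction (0.56, limma adjusted p = 0.00410, lost under 1 of 20). Bhlhe40, an E-box repressor, rose with leptin against restriction by 0.67 (limma adjusted p = 0.0104, kept under all 21), and Per1 was higher under restriction than in wild type by 0.81 (limma adjusted p = 0.0135, lost under 2 of 20).

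Ppargc1a, a coactivator of ROR receptors as well as of mitochondrial genes, was lowest in ad libitum hearts at 567 ± 28.6 (SD, n = 4) and highest in wild type at 1288 ± 192 (SD, n = 4). It fell by 1.17 on the log2 scale in ad libitum hearts against wild type (limma adjusted p = 1.04e-04) and rose by 0.69 with leptin against ad libitum (limma adjusted p = 0.00866), calls kept under all 19 and all 20 alternatives. Restriction against wild type gave -0.81 (limma adjusted p = 2.36e-04, kept under all 20), and leptin against restriction 0.33 (limma adjusted p = 0.0396, lost under 12 of 21). Among the other coregulators, Sirt1, a deacetylase, was highest under restriction at 165 ± 21.4 (SD, n = 5). It rose by 0.41 against ad libitum (limma adjusted p = 0.0278, lost under 11 of 20), and changed by -0.40 with leptin against restriction (limma adjusted p = 0.0113, lost under 3 of 21). Hdac3, the deacetylase that works with REV-ERB, was higher under restriction than in wild type by 0.33 (limma adjusted p = 0.0172) and changed by -0.32 with leptin against restriction (limma adjusted p = 0.0126). Of 5 clock-controlled heart genes tested, Kcnip2, a potassium channel subunit, rose with leptin against restriction by 0.81 (limma adjusted p = 0.00705), but with its probe sets averaged the change was 0.37 and not called (limma adjusted p = 0.15). Under restriction against wild type 1 of the 5 rose and 1 fell, where 11.3% of all genes were called. Tcap, a sarcomere protein, rose by 0.46 (limma adjusted p = 0.00627), and Kcnip2 changed by -0.63 (limma adjusted p = 0.0458, lost under 12 of 20). No count of lost calls is given here for Hdac3, Tcap or Nr1d2 with leptin against restriction. Of 24 called changes in other clock genes, 16 were lost under some alternative.

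Of the genes that textbooks place under ROR elements 5 were tested, among them 4 of the genes described here. Their median was -1.37 with leptin against ad libitum and 0.38 in ad libitum hearts against wild type. Both medians equal those of the 5 genes described here, because the lists share 4 genes, so they are not separate evidence. With leptin against ad libitum 1 of the list fell (Arntl) and 0 rose, where 0.24% of all genes were called lower. The 1 other gene tested, Cry1, was not called there. Of 11 textbook E-box genes, 5 rose and 0 fell with leptin against ad libitum (median 0.76, 0.404% of all genes called higher), and 3 rose and 0 fell with restriction (median 0.46, 2.46% called higher). All 11 are among the repressors and D-box activators already counted above, so these counts are likewise a description. Promoter windows were found for 9 of the 11. CACGTG was in 4 of them (Per1, Tef, Bhlhe41 and Ciart), against 8.09% of all genes and none of the 5 genes described here. The motifs did not split cleanly by list. AGGTCA was in 2 of the 9 (Per1 and Nr1d2), against 18.13% of all genes. Cry1, from the ROR element list, held both CACGTG and CACGTT. No binding was measured.

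Across the 18 arrays, the genes whose log2 signals ran most like Arntl among 13358 others were Zbed4 (Pearson r = 0.875), Mettl11b (0.832), Glt28d2 (0.827), Tmem150c (0.824) and Clec16a (0.785). Running most against it were Plekhm1 (-0.87), Nr1d2 (-0.849), Sp1 (-0.843), Dbp (-0.839) and Ccdc85b (-0.803). Arrays share their group, and after each group's mean was taken out the r with Zbed4 was 0.48, with Nr1d2 -0.545, with Sp1 -0.614 and with Dbp -0.377. Zbed4 signal averaged 78.9 in ad libitum and 57.5 in leptin hearts, a smaller span than Arntl's. These r are the extremes of a ranking and carry no test.

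Within the 5 genes, Arntl ran with Nfil3 (r = 0.674) and Npas2 (r = 0.614) over 18 arrays. Inside groups these became -0.172 and -0.242. Its r with Clock was 0.304 and with Rora -0.16. The positive r of Arntl with Nfil3 and Npas2 over all arrays was therefore not seen among arrays of 1 group.

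Npas2 ran most like Vmn1r148 (0.861), Leo1 (0.86), Dnase2a (0.819), Lypd5 (0.811) and Inha (0.807), and most against Atg13 (-0.888), Hspa5 (-0.847), Smarcal1 (-0.847), Sf1 (-0.844) and Yif1a (-0.828). After each group's mean was taken out, r was 0.771 to 0.896 for the 5 most alike and -0.881 to -0.632 for the 5 most opposed. These genes were ranked on the same arrays, so those r carry no test. Within groups, log2 values of Npas2 spread most in the leptin group, from 2.59 to 4.81. The lowest, of replicate 2, came from a signal of 0.896, under the offset. How far these r rest on that array was not tested. Clock ran most like Zyx (0.803), Exoc5 (0.747) and Ranbp2 (0.727). Nfil3 ran most like Ccser2 (0.813), Slc20a1 (0.787) and Slc25a36 (0.766), and Rora most like Stard13 (0.795), Aox1 (0.758) and Ypel3 (0.745).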

How the data were processed

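The 18 arrays hold biotin-labelled cRNA from ventricular myocardium, and the authors deposited linear MAS5 signal intensity per probe set (MAS5 per the submitters' processing notes). No source used here gives the MAS5 settings, and depth is not defined for arrays: the number of arrays limits the precision. Of 45101 probe sets, 34945 carry 1 gene symbol in the platform annotation, 932 several, 9160 none and 64 are controls; 34741 were matched to RefSeq by Entrez number. Signals were tested as log2(signal + 5.13), the offset being the 20th percentile of all signals, with limma 3.58.1 in R 4.3.3. The model had 4 group means, equal weights and no covariate, and took the probe set of highest mean per gene; 13359 genes passed a filter at the 40th percentile of probe set means. A second fit took all 23108 single probe sets that passed. Fold values are ratios of mean signals. The code was tested on simulated data.

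The 5 genes, the clock lists and the markers were chosen with earlier results of these data known. Named were all 5 genes with every probe set, each clock list gene called in any comparison together with Per2, Cry1, Nr1d1, Nr1d2 and Dbp (1 further gene is not reported here), and for likeness the genes of highest or lowest Pearson r over 18 arrays (5 each way for Arntl and Npas2, 3 for the others), with 1 unnamed clone passed over. Alternatives covered the offset, filter, scaling, probe set rule, arrays fitted, array weights, replicate block, atrial covariate, both restricted arrays of high atrial signal, and each array left out in turn. Replicate numbers shared by groups were not used to pair arrays in the main fit.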

Additional observations from a re-analysis of the deposited data

Results flagged for a closer look

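In the leptin group of the Clock probe set 1435775_at, replicate 4 had a signal of 86.5, while the other 4 arrays lay between 60.8 and 64.6. Its gap to the nearest array took 0.849 of the group's range, above Dixon's critical value of 0.71 for 5 arrays. It was the 1 array picked out among 72 groups of probe set signals, where chance gives about 1 in 20 groups. On the same array the main Clock probe set read 138, the lowest of its group, whose other arrays read 139 to 164.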

How the results depend on the processing

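For the 30 changes of the 5 genes, 588 values were recomputed, of which 542 kept direction and side of the threshold. Arntl stayed called under all 20 alternatives with leptin against ad libitum (-1.70 to -0.80) and under all 21 with leptin against restriction (-0.82 to -0.45). With restriction against ad libitum it lost the call with the mean of all probe sets (-0.35), leaving 0 of the 5 genes called. With leptin against ad libitum, Npas2 became called with the offset at the 40th percentile (-1.01), quantile normalization (-1.50) and array weights (-1.53), and ran from -1.73 to -1.17 with single arrays left out. Nfil3 became called with that offset (-1.19), a filter at the 60th percentile (-1.37) and array weights (-1.36), and ran from -1.58 to -1.19. The number of the 5 genes called was then 3, 2, 2 and 3 for the offset, filter, quantile and weight settings, and 1 to 3 with arrays left out. With leptin against restriction, Npas2 lost its call with an offset of 1 (-1.48), no filter (-1.06), the replicate block (-1.06, limma adjusted p = 0.0590), the atrial covariate (-1.13), only the groups compared (-1.06) and without both high-atrial arrays (-1.03), and ran from -1.26 to -0.71 with arrays left out. In those settings, and where Npas2 was not tested (60th percentile filter, mean of probe sets), 1 gene stayed called, and 1 to 2 with arrays left out. With leptin against wild type Arntl became called with the 60th percentile filter (-0.95), array weights (-0.94) and without both high-atrial arrays (-0.95), which made 1 gene called in each, and 0 to 1 with arrays left out (-1.04 to -0.83), while the mean of all probe sets cut the change to -0.36 (limma adjusted p = 0.488).

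Signs turned in changes near 0 that were never called. With the mean of all probe sets these were Clock in leptin against restriction (-0.033) and against wild type (-0.014), and Arntl in restriction against wild type (0.084). Clock in restriction against wild type turned with array weights (-0.019), and Rora in leptin against wild type with the replicate block (0.014). Rora in restriction against wild type turned with the atrial covariate (-0.0032) and without the high-atrial arrays (-0.0091). With arrays left out, Rora ran from -0.026 to 0.16 (leptin against ad libitum), -0.15 to 0.038 (against restriction), -0.13 to 0.054 (against wild type) and -0.061 to 0.076 (restriction against wild type), and Clock from -0.00031 to 0.082 (leptin against restriction) and -0.040 to 0.15 (restriction against wild type). The causes were not tested.

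Over all genes, the count called ran from 5 to 58 around 40 (ad libitum against wild type), 8 to 132 around 86 (leptin against ad libitum), 335 to 923 around 725 (restriction against ad libitum), 1029 to 1979 around 1819 (leptin against restriction), 1 to 5 around 1 (leptin against wild type) and 892 to 1888 around 1504 (restriction against wild type). With the replicate block the 40 and 86 became 11 and 23. Of 25 same-numbered pairs of arrays 1 had a correlation of deviations over 0.1 (-0.181 to 0.345), that of ad libitum and wild-type replicate 4. Such correlations cannot exclude a pairing, and the main fit did not treat the numbers as pairs. Of 24 called changes in other clock genes, recomputed after seeing the data, 8 stayed called throughout and 0 reversed. Arrays give no count depth, and low signals such as those of Npas2 are the least precise.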
